A study of Solanum lycopersicum with 4 samples.

Results

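Genes that act where side shoots form, stay dormant or grow out and where leaves mature were followed in tomato (Solanum lycopersicum) shoot meristems. The 6 genes were LS, BL, GOB, BRC1a, BRC1b and LA, of 34727 in the table. They were chosen by identifier for their published roles and not for their values, but with earlier results of these data known. The tmf mutant meristems carry a mutation in TERMINATING FLOWER (TMF), a gene of the ALOG family of nuclear proteins, and were compared with wild-type meristems. Both genotypes were grown in a greenhouse and sampled 8 days after germination, at a stage named late vegetative, and each of the 2 libraries per genotype was made from meristems pooled from several plants. The labels name neither the tmf allele nor the cultivar.

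A shoot meristem forms leaves on its flank, and a boundary of slowly dividing cells separates each leaf from the meristem. New meristems, the axillary meristems, arise in that boundary at the leaf base. In tomato they give side shoots, and the shoot that continues growth once the main apex has ended in a flower is one of them. LS (LATERAL SUPPRESSOR, a GRAS-family regulator) and BL (BLIND, an R2R3 MYB transcription factor) are needed to start axillary meristems. GOB (GOBLET, a NAC transcription factor under control of the microRNA miR164) sets organ boundaries. BRC1a and BRC1b are BRANCHED1-like TCP transcription factors, a group that holds axillary buds back from growing out. LA (LANCEOLATE) is a TCP transcription factor of another group, under control of the microRNA miR319, that promotes leaf maturation.

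A level is a number of normalised reads, scaled so that each library totals 10000000, and the libraries held between 17540331 and 28310492 reads assigned to genes. Errors are SDs of 2 libraries, and counting intervals are exact 95% Poisson intervals that cover counting error only. TMF itself was at 6.1 and 6.27 in tmf meristems libraries, against 1238 and 2224 in wild-type meristems, so the libraries separated at this gene as labelled. The shoot meristem genes WUS, CLV3 and TKN2 were read in all 4 libraries, as were all 5 genes of a green leaf list, whose summed level ran from 27930 to 43480 in tmf meristems and from 30560 to 39990 in wild-type meristems. In such pooled tissue, fewer cells of a type and less RNA per cell cannot be told apart.

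None of the 6 genes differed between tmf and wild-type meristems at a Benjamini-Hochberg adjusted p under 0.05 (limma, over 21437 genes tested), where 0.215% of all genes tested passed, 0.131% as higher and 0.084% as lower in tmf. Their log2 fold changes, mutant over wild type, ran from -0.75 for BRC1b to 0.88 for BL, with a median of 0.09 against 0.04 over all genes tested. All 6 passed the filter on low values. No member had an unadjusted p under 0.05 with limma, where 6.2% of all genes did, or with edgeR's quasi-likelihood test, and 1 did with DESeq2, BL (adjusted p = 0.838). None passed after adjustment with edgeR or DESeq2, which called 0.252% and 0.998% of all genes. The spread between the 2 mutant libraries was larger than that between the 2 wild-type libraries for 5 of the 6 genes, GOB being the exception. This was not so over the 17617 tested genes with a mean of at least 10. Their median absolute log2 difference between replicates was 0.279 in tmf and 0.321 in wild type.

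**Figure D1:**
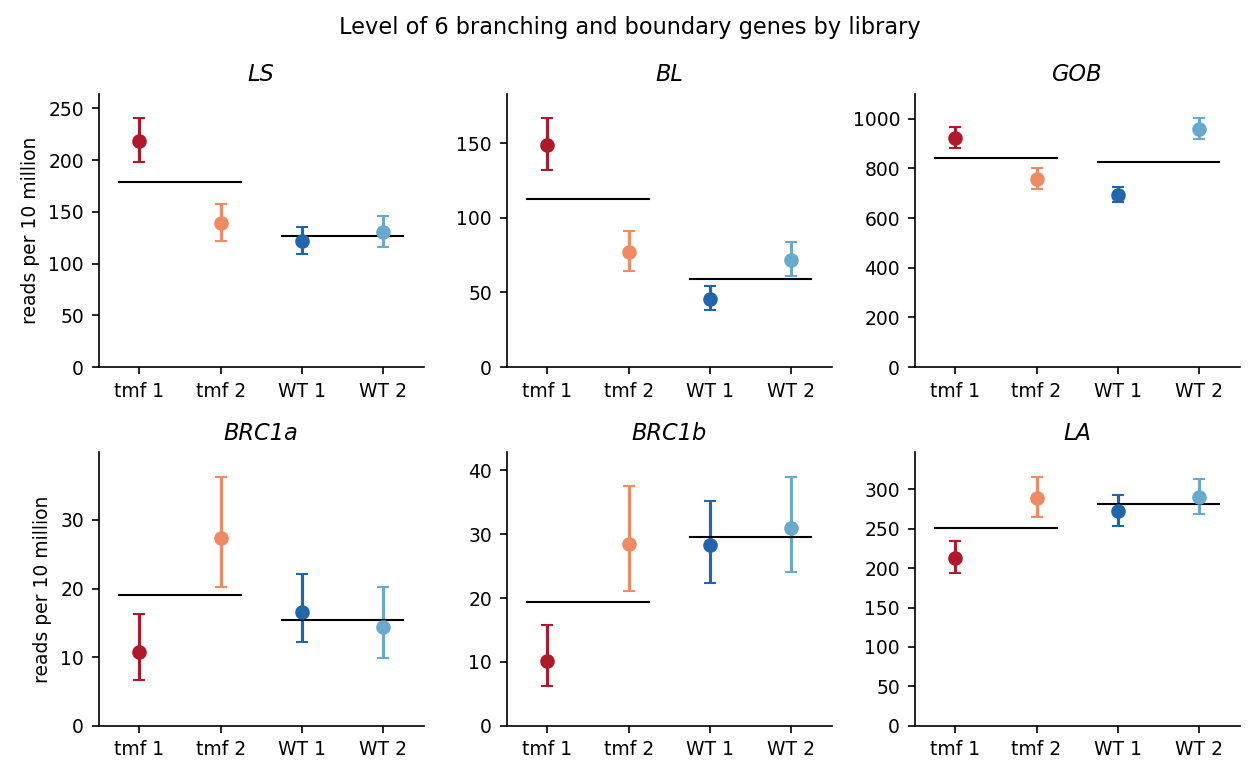
Level of each gene, in reads per 10000000 on an axis from 0, in tmf libraries 1 and 2 and wild-type (WT) libraries 1 and 2. Points are libraries, bars are exact 95% counting intervals and black lines are the means of 2 libraries. LS and BL were highest in mutant library 1, while BRC1a, BRC1b and LA were lowest there.

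The genes that start axillary meristems had higher values in both mutant libraries than in either wild-type library. LS (Solyc07g066250.1.1, chromosome 7 by its identifier) was at 218.6 and 139 normalised reads in tmf libraries 1 and 2, against 122 and 131 in wild-type meristems. The genotypes did not overlap, but mutant library 2 lay close to the wild-type pair and mutant library 1 stood apart. The means were 179 ± 56.2 in tmf meristems and 126 ± 5.9 in wild-type meristems (SD, n = 2 each), a ratio of 1.42. The log2 fold change of 0.46 ± 0.3 (SE) had a 95% interval of -0.22 to 1.15 and did not pass (limma adjusted p = 0.973). Without mutant library 1 the LS log2 fold change was 0.14, and without mutant library 2 it was 0.79.

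BL (Solyc11g069030.1.1, chromosome 11) showed the same order of libraries as LS. It was at 148 and 77 normalised reads in tmf meristems, against 45.9 and 71.8 in wild-type meristems. Mutant library 2 and wild-type library 2 were close, and their counting intervals, 64.5 to 91.1 and 61.3 to 83.6, overlapped. The means were 113 ± 50.5 in tmf meristems and 58.9 ± 18.3 in wild-type meristems (SD, n = 2 each), a ratio of 1.91. This was the largest positive log2 fold change among the 6 genes, 0.88 ± 0.41 (SE), with a 95% interval of -0.05 to 1.82 (limma adjusted p = 0.835). It ranged from 0.42 without mutant library 1 to 1.35 without mutant library 2. Of all genes tested, 20.7% had both mutant libraries above both wild-type libraries, as LS and BL did.

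The boundary gene GOB had nearly equal means in both genotypes. GOB (Solyc07g062840.2.1, chromosome 7) was at 923 and 758 normalised reads in tmf meristems, against 694 and 959.6 in wild-type meristems. The wild-type libraries held both the highest and the lowest value, with the mutant pair between them. The means were 841 ± 117 in tmf meristems and 827 ± 188 in wild-type meristems (SD, n = 2 each). The log2 fold change of 0.04 ± 0.25 (SE) did not pass (limma adjusted p = 0.999), and its 95% interval of -0.54 to 0.61 spans fold changes from 0.69 to 1.52. The sign of this value depended on the scaling, with -0.03 under TMM factors and -0.02 under DESeq2 size factors.

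The 2 bud-dormancy genes were read at low levels, and their mutant libraries disagreed with each other. BRC1a (Solyc03g119770.2.1, chromosome 3) was at 10.7 and 27.4 normalised reads in tmf meristems, against 16.6 and 14.4 in wild-type meristems, from between 21 and 48 reads in each library. The mutant libraries held the lowest and the highest of the 4 values, so the genotypes overlapped. The means were 19 ± 11.8 in tmf meristems and 15.5 ± 1.58 in wild-type meristems (SD, n = 2 each). The BRC1a log2 fold change, 0.15 ± 0.53 (SE), did not pass and had a 95% interval of -1.07 to 1.36 (limma adjusted p = 0.999). Its direction rested on 1 library, being 0.79 without mutant library 1 and -0.49 without mutant library 2.

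BRC1b (Solyc06g069240.1.1, chromosome 6) was at 10.2 and 28.5 normalised reads in tmf meristems, against 28.3 and 30.9 in wild-type meristems, from between 20 and 80 reads in each library. Mutant library 1 stood apart below, and the other 3 libraries had overlapping counting intervals. The means were 19.3 ± 13 in tmf meristems and 29.6 ± 1.87 in wild-type meristems (SD, n = 2 each), a ratio of 0.654. The log2 fold change of -0.75 ± 0.53 (SE) had a 95% interval of -1.96 to 0.46 (limma adjusted p = 0.981). It was -0.05 without mutant library 1 and -1.45 without mutant library 2.

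Both BRC1 genes were lower in mutant library 1 than in mutant library 2 by more than counting error. The ratio of mutant library 1 to mutant library 2 was 0.39 for BRC1a, with a 95% exact counting interval of 0.222 to 0.664, and 0.357 for BRC1b, with an interval of 0.201 to 0.61. The same ratio between wild-type libraries 1 and 2 was 1.16 for BRC1a (0.725 to 1.86) and 0.914 for BRC1b (0.656 to 1.28), so no difference between the wild-type libraries was detectable at this depth. A difference beyond counting error was not particular to the BRC1 genes. The same intervals excluded 1 between the mutant libraries for LS, BL, GOB and LA, and between the wild-type libraries for BL and GOB. The mutant ratios of LS, BL, GOB and LA, at 1.57, 1.93, 1.22 and 0.737, lay nearer 1 than those of the BRC1 genes. They came from more reads, so their intervals were narrower. Over genes with enough reads, the chi-square per degree of freedom between replicates was 47.6 in tmf and 64 in wild type, where counting error alone gives about 1. That average takes in genes of all depths, and none was taken for genes read as sparsely as the BRC1 genes. The counting intervals compare libraries, not genotypes.

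The balance of the 2 BRC1 genes was examined within each library, where total depth cancels. BRC1a made up 51.2% and 49% of the reads of the pair in tmf meristems libraries, with exact 95% binomial intervals of 35.1% to 67.1% and 38.7% to 59.3%. In the wild-type libraries it made up 37% and 31.7%, with intervals of 28.6% to 46% and 23% to 41.6%. Both mutant shares thus lay above both wild-type shares, although the intervals of all 4 libraries overlapped. The log2 ratio of BRC1a to BRC1b, with 1 added to each level, averaged 0.0037 ± 0.0856 in tmf meristems and -0.89 ± 0.23 in wild-type meristems (SD, n = 2 each), a difference of 0.9. An exact permutation test gave p = 0.333, two-sided, the smallest that this test can give with 2 libraries against 2, so it could not have passed a threshold of 0.05 whatever the values.

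LA, the leaf maturation gene, had a slightly lower mean in tmf meristems, with overlapping libraries. LA (Solyc07g062680.1.1, chromosome 7) was at 213 and 289.6 normalised reads in tmf meristems, against 272 and 289.8 in wild-type meristems. Mutant library 1 was the lowest, and mutant library 2 lay between the wild-type libraries. The means were 251 ± 53.8 in tmf meristems and 281 ± 12.4 in wild-type meristems (SD, n = 2 each), a ratio of 0.895. With a limma adjusted p of 0.999, the log2 fold change was -0.18 ± 0.25 (SE), with a 95% interval of -0.75 to 0.4. Without mutant library 1 it was 0.04, so the negative sign rested on that library.

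**Figure D2:**
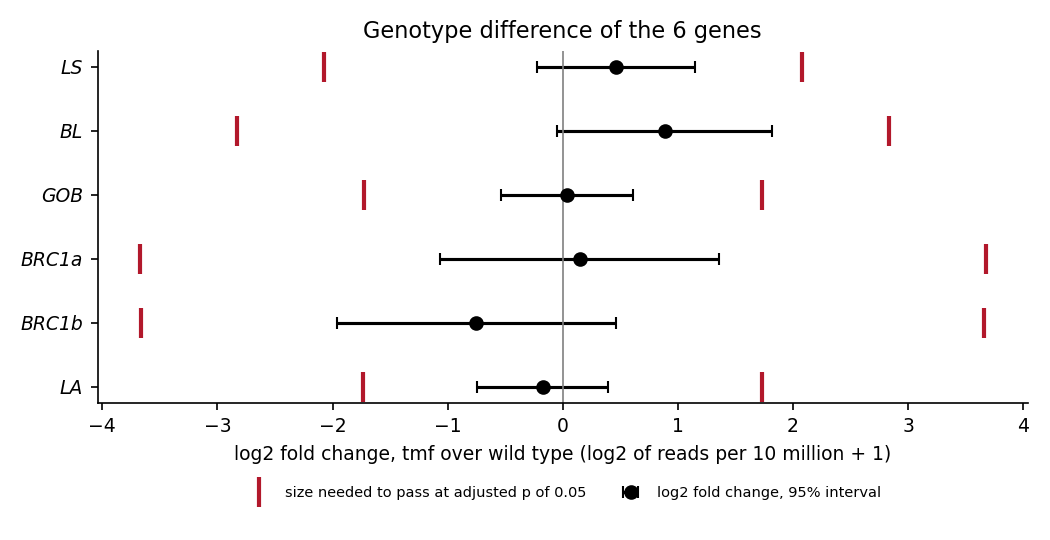
Log2 fold change of each gene, tmf over wild type, on log2(reads per 10000000 + 1). Points are limma estimates, horizontal bars their 95% intervals and red ticks the size that would have passed at an adjusted p of 0.05; all 6 intervals include 0 and lie inside the red ticks.

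The size of change that the comparison could have called differed among the 6 genes. With the standard errors above and the p-value cutoff that the adjustment gave over all genes, a change had to reach 3.32-fold for GOB and for LA, 4.22-fold for LS and 7.12-fold for BL. For the BRC1 genes, with few reads and wide spread, it had to reach 12.8-fold for BRC1a and 12.7-fold for BRC1b. Smaller changes of these genes were therefore not detectable by this test, and the intervals state what remains possible: up to 3.53-fold higher for BL, and down to 0.257 of the wild-type level for BRC1b.

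**Figure D3:**
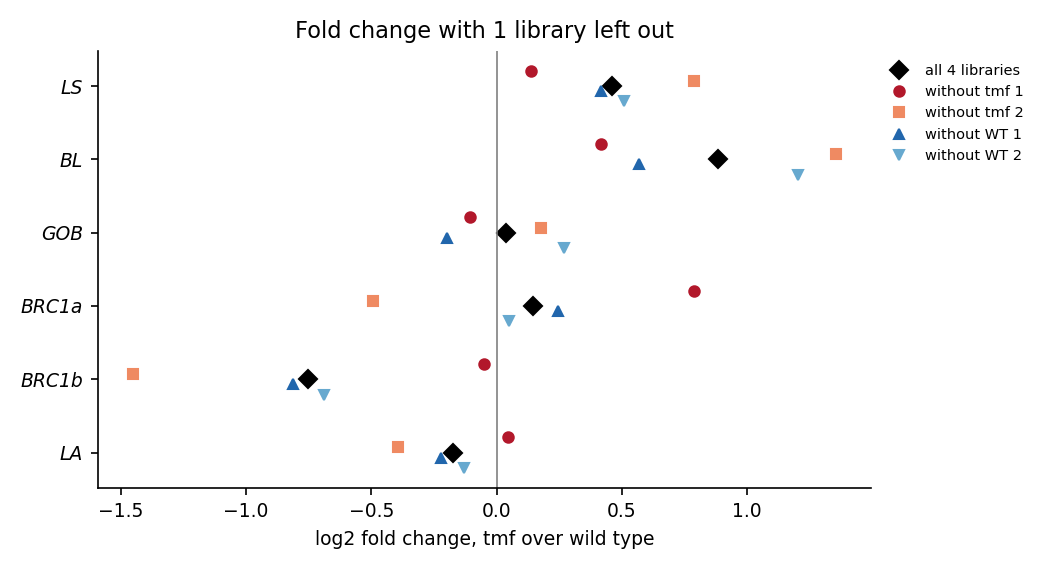
Log2 fold change of each gene, tmf over wild type, with all 4 libraries (black diamonds) and with each library left out in turn (coloured symbols). LS and BL, whose genotypes did not overlap, could only stay above 0 in all 4 such fits. BRC1b stayed below 0, while GOB, BRC1a and LA took both signs.

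The question of whether early floral gene activity goes with altered boundary, bud or leaf-maturation genes was addressed by setting the 6 genes beside floral genes in each library. AN (ANANTHA), an F-box gene needed for floral identity, was at 435 and 46.7 normalised reads in tmf libraries 1 and 2, against 0.353 and 2.61 in wild-type meristems. EJ2, a SEPALLATA-class MADS-box gene, was at 596 and 253 in tmf meristems, against 1.41 and 2.18 in wild-type meristems. For both floral genes the mutant pair lay far above the wild-type pair, and mutant library 1 above mutant library 2. EJ2 passed the test over all genes (limma adjusted p = 0.00118), and AN did not (limma adjusted p = 0.0702). Over 6 floral genes (AN, EJ2, TM5, J2, FUL2 and FA) the median log2 level exceeded the wild-type mean by 6.77 in mutant library 1 and by 4.28 in mutant library 2. Of these 6 floral genes 3 passed, EJ2, TM5 and J2, all higher in tmf (limma). These genes were known from earlier results to be higher in tmf meristems, and serve only as a scale.

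Against the same wild-type mean, 5 of the 6 branching and boundary genes lay outside the range of the wild-type pair in mutant library 1, in both directions. LS and BL lay above the mean by 0.79 and 1.35 on the log2 scale. BRC1a, BRC1b and LA had log2 differences of -0.49, -1.45 and -0.39 there. GOB, at 0.18, lay within the wild-type range of -0.23 to 0.23. In mutant library 2, the 6 floral genes also lay above the wild-type mean, by 0.79 for FA and by at least 2.34 for each of the others. There LS, at 0.14, BL, at 0.42, and BRC1a, at 0.79, lay above the range of the wild-type pair. GOB, BRC1b and LA lay within that range. Mutant library 1 was thus the highest of the 4 libraries for 2 of the 6 genes and the lowest for 3, where over all genes tested it was the highest for 24.6% and the lowest for 31.3%. With 2 mutant libraries no relation between floral and branching genes can be tested.

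Several markers of shoot and leaf tissue also differed between the mutant libraries. WUS, CLV3 and TKN2 were at 157, 114 and 2797 normalised reads in mutant library 1 and at 46.7, 25.7 and 1062 in mutant library 2, but 2 other genes of the 5 on the shoot meristem list were lower in library 1. In wild-type meristems WUS was at 51.9 and 92.7, CLV3 at 18 and 66.6, and TKN2 at 841 and 1117. All 5 green leaf genes had lower values in mutant library 1 than in mutant library 2, by very different amounts. RBCS3A, a Rubisco small subunit gene, differed most, at 1979 and 6549 in tmf meristems, against 3908 and 4303 in wild-type meristems. CAB4, a light-harvesting gene, was at 10960 and 11110 in tmf meristems, against 7454 and 12150 in wild-type meristems, and the counting intervals of its mutant libraries overlapped. All 3 epidermis genes were also lower in mutant library 1, with summed levels of 1388 and 2231 in tmf meristems and 2839 and 1490 in wild-type meristems. Over all genes tested, the median log2 difference of mutant library 1 from mutant library 2 was -0.106, also toward lower values in library 1. No gene of these 3 lists was at 0 in any library. Their part in the displacement of LS, BL, BRC1a, BRC1b and LA was not tested.

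**Figure D4:**
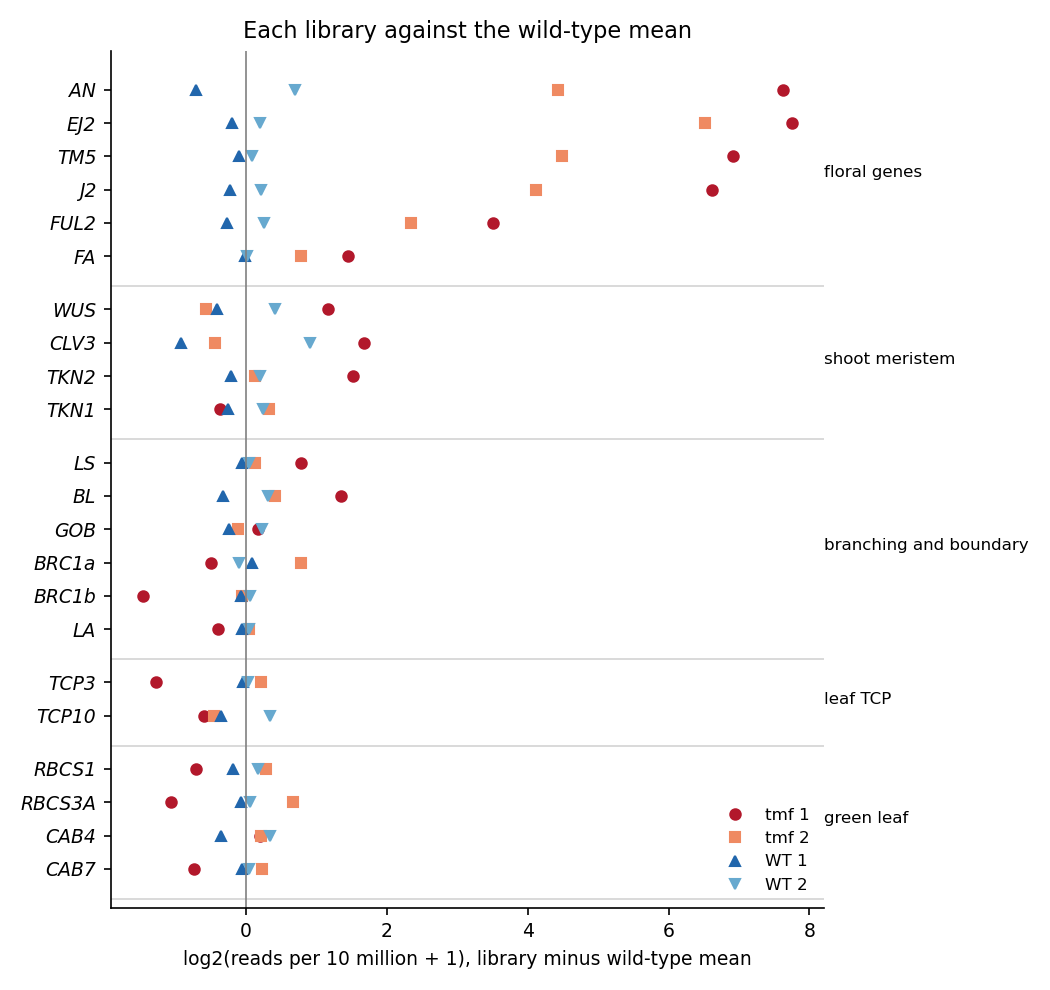
Difference of each library from the wild-type mean of the same gene, in log2(reads per 10000000 + 1), for floral, shoot meristem, branching and boundary, leaf TCP and green leaf genes. Red circles and orange squares are tmf libraries 1 and 2, and blue triangles the 2 wild-type libraries; mutant library 1 is highest for LS and BL and lowest for BRC1a, BRC1b and LA.

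The list genes with the most similar pattern over the 4 libraries were sought for each gene, by the root-mean-square distance between mean-centred log2 levels, among 45 candidates. LS lay closest to LFS (LEAFLESS, an AP2-type gene of leaf initiation), at a distance of 0.16, followed by GOB at 0.28. BL lay closest to TKN2, a KNOX homeobox gene of the meristem, at 0.18, and then to FA, the LEAFY homologue, at 0.26. GOB was nearest to LYR at 0.13 and CAB4 at 0.16. The 2 nearest to both BRC1 genes were the photosynthesis genes CAB7 and RBCS3A, at 0.25 and 0.26 for BRC1a and at 0.3 and 0.3 for BRC1b. LA was nearest to the sucrose transporter gene SUT1 at 0.12, and then to a green leaf list gene that carries no printed name, at 0.14. With 4 libraries these distances describe the samples only.

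TCP3 and TCP10, further TCP genes of the miR319-controlled group of LA, were looked up after the values of the 6 genes had been seen. TCP3 (Solyc12g014140.1.1, chromosome 12) was at 27.5 and 79.2 normalised reads in tmf meristems, against 66.4 and 69.2 in wild-type meristems. As for BRC1b and LA, mutant library 1 was the lowest and the other 3 libraries were close, and the pattern of TCP3 lay at a distance of 0.12 from that of BRC1b. TCP10 (Solyc07g053410.2.1, chromosome 7) was at 6.1 and 6.84 in tmf meristems, against 7.42 and 12.6 in wild-type meristems. Neither passed (limma adjusted p = 0.999 for each), with log2 fold changes of -0.53 ± 0.49 for TCP3 and -0.52 ± 0.5 for TCP10 (SE). Without mutant library 1 the sign of TCP3 turned, to 0.22.

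Further genes of organ boundaries and axillary meristems gave no call either. Of the 9 on that list, 8 were tested and none passed in either direction (limma). None had an unadjusted p under 0.05, where 6.2% of all genes did, and the median log2 fold change was 0.19, against 0.04 over all genes. The log2 fold changes, 6 positive and 2 negative, ran from -1.215 to 0.44. The lowest, and the largest in size, was that of a gene that carries no printed name. The mutant pair lay wholly above the wild-type pair for 2 of the 8 and wholly below for 1, against 20.7% and 12.1% of all genes tested. BOP2 and BOP3 are BLADE-ON-PETIOLE genes, whose products act in leaf boundaries and bind TMF. BOP2 was at 357 and 530 normalised reads in tmf meristems, against 297 and 396 in wild-type meristems, and BOP3 was at 390 and 480 in tmf meristems, against 308 and 331 in wild-type meristems. LFS was at 375 and 175 in tmf meristems, against 188 and 201 in wild-type meristems, so that mutant library 1 stood apart above, as it did for LS. The log2 fold changes of BOP2, BOP3 and LFS were 0.34, 0.44 and 0.4, with limma adjusted p of 0.994, 0.883 and 0.999, and that of LFS was -0.15 without mutant library 1.

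Genes of strigolactones, hormones that restrain bud outgrowth, were sparsely read or did not pass. Of 6 such genes 4 were tested, and none passed in either direction (limma), with 1 at an unadjusted p under 0.05 and a median log2 fold change of 0.49. Over all genes tested these values were 6.2% and 0.04. The gene with the unadjusted p under 0.05, which carries no printed name, was lower in tmf, at a log2 fold change of -0.85. The genotypes did not overlap for any of the 4 tested genes, with 3 above and 1 below in tmf meristems, where 32.8% of all genes tested did not overlap. CCD7, a carotenoid cleavage enzyme of strigolactone synthesis, had 2 and 0 reads in tmf meristems libraries, against 0 and 1 in wild-type meristems. Taking 3 reads as the limit that a count of 0 allows, the level could still be as high as 1.06 in the deepest library and 1.71 in the shallowest, so CCD7 levels could not be compared.

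Genes of leaf form other than LA gave no call with limma. Of 7 tested, none passed in either direction (limma), 1 had an unadjusted p under 0.05, and the median log2 fold change was 0.13. Among all genes tested, 6.2% had an unadjusted p under 0.05 and the median log2 fold change was 0.04. IAA9, the auxin response repressor mutated in entire plants, was at 7698 and 8109 normalised reads in tmf meristems, against 8730 and 8581 in wild-type meristems. LYR, the JAGGED homologue that shapes leaflets, was at 221 and 201 in tmf meristems, against 208 and 232 in wild-type meristems. PTS, a KNOX-type gene without a homeodomain, was at 1328 and 1174 in tmf meristems, against 683 and 1497 in wild-type meristems, so that the wild-type libraries spanned the mutant pair. Among these 3 genes the log2 fold change was largest in size for PTS, at 0.3, and each had a limma adjusted p of 0.999. The 95% intervals were -0.51 to 1.12 for PTS, -0.88 to 0.61 for IAA9 and -0.6 to 0.48 for LYR.

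AGO7, which encodes the ARGONAUTE protein of the pathway that limits auxin response factors in leaves, had the largest change on the leaf list and is singled out for its values. It was at 587 and 323 normalised reads in tmf meristems, against 168 and 172 in wild-type meristems. Both mutant libraries lay well above the wild-type pair, and mutant library 1 was again the higher. The log2 fold change was 1.35 ± 0.31 (SE), which did not pass (limma adjusted p = 0.244). It passed with DESeq2 on the recovered reads (adjusted p = 0.0155) and not with edgeR's quasi-likelihood test (adjusted p = 0.21). Without mutant library 1 the AGO7 log2 fold change was 0.92, and without mutant library 2 it was 1.78.

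**Figure D5:**
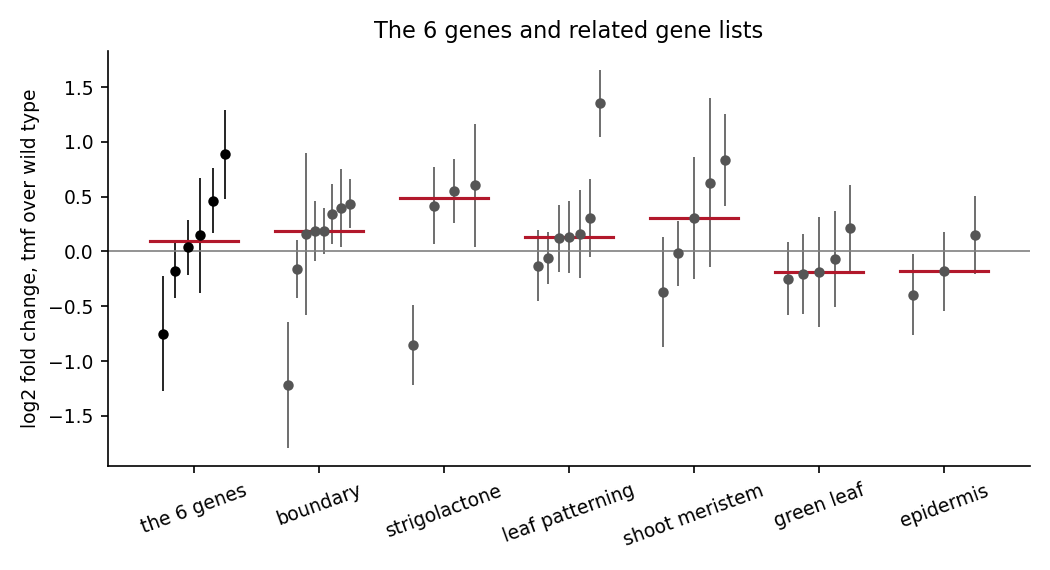
Log2 fold changes, tmf over wild type, of the 6 genes and of the tested genes of 6 related lists. Points are genes, vertical bars standard errors from limma and red lines the medians of each list; the highest point on the leaf patterning list is AGO7, at 1.35.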

How the data were processed

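Each gene has 1 deposited signal value in each library. The authors scaled reads to a common total, since each library sums to 10000000. Dividing by the smallest value gave whole numbers for 100% of the values above 0 (tolerance 1e-06), which returned the reads. The submitters' processing notes name Bowtie 0.12.5 and edgeR; for genome build, annotation, strandedness and multiply matching reads the sources used here give nothing, so close relatives such as BRC1a and BRC1b could share reads.

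The test was limma 3.58.1 (R 4.3.3) on log2(value + 1), which understates changes of low genes. It used a trended prior variance and the genes whose mean was 1 or more, with genotype as the only term, two-sided, with Benjamini-Hochberg adjustment over all genes. Alternatives on the recovered reads used edgeR 4.0.16, DESeq2 1.42.0 and limma-voom. The limma fit was tested on simulated data. edgeR's quasi-likelihood test called 54 genes and limma 46. The same-numbered libraries' deviations from their genotype means correlated at -0.109, and no block was used.

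The members and lists were chosen with earlier results of these data known. Genes named are the 6 members, TMF, the floral genes AN and EJ2 and the floral median, list genes past the threshold, and the 2 list genes nearest in pattern to each member; other list genes named were picked to illustrate their list, after their values were seen. The files pair no identifier with a name. A list gene is named only where the RefSeq gene table (assembly SLM_r2.1) places that name or an alias on the same chromosome within 5 percentage points of its relative order. That held for 20 of 36 other list genes and for 5 of the 6 members; BL and TMF rest on published nomenclature, and EJ2 was matched as MADS1 and FA as FALSIFLORA. No sequences are shown.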

Additional observations from a re-analysis of the deposited data

How the results depend on the processing

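None of the 6 genes passed under any of the 16 alternatives run for each, with adjusted p from 0.332 (BL without mutant replicate 2) upward. LS, BL and BRC1b kept their sign in all 16. The filter, variance trend and block settings leave a log2 fold change as it was, so they could not turn it. For LS and BL, whose genotypes did not overlap, leaving out 1 library or changing the pseudocount could not turn it either. With 1 library left out (a genotype with 1 library then borrows the spread of the remaining pair), log2 fold changes ran from 0.14 to 0.79 for LS, 0.42 to 1.35 for BL, -0.198 to 0.27 for GOB, -0.49 to 0.79 for BRC1a, -1.45 to -0.05 for BRC1b and -0.39 to 0.0437 for LA. GOB also turned negative with edgeR (-0.0305), DESeq2 (-0.0167), limma-voom (-0.0322), DESeq2 size factors (-0.015) and TMM factors (-0.0324). Leaving out mutant replicate 2 reversed BRC1a, and leaving out mutant replicate 1 reversed LA, LFS (range -0.15 to 0.95) and TCP3 (-1.27 to 0.22). LYR (-0.135 to 0.0158) reversed without mutant replicate 2 (0.00606) or wild-type replicate 2, and PTS (-0.26 to 0.87) without wild-type replicate 1. The BRC1a to BRC1b difference stayed between 0.74 and 1.06. Leaving out 1 library could not turn its sign, since the log2 ratios of the genotypes did not overlap. Over all genes, 46 calls became 214 with DESeq2, 19 at a mean of at least 10, where fewer genes were tested, and 6 to 61 with 1 library left out. With the replicate number as a block there were 368 calls. The crossed replicate block, chosen after seeing the data, gave 219. The leaf list had 1 call, AGO7, with DESeq2, the replicate block or the crossed replicate block, and the cause was not tested. The labels give no batch, so the block counts carry no added weight.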
